A study of Homo sapiens with 10 samples.

Results

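The 39 human HOX genes of the HOXA, HOXB, HOXC and HOXD clusters were taken from a gene annotation by their symbols, the letters HOX followed by A, B, C or D and a number. Of these, 35 were among the 24050 genes listed in either of the 2 count tables. The HEK293T table, with 22750 genes, listed 35 HOX genes, and the NPC table, with 20965 genes, listed 4, HOXB2, HOXB5, HOXC13 and HOXD13, which were also the only ones listed in both. HOXC5, HOXC11, HOXC12 and HOXD4 were listed in neither table and were not analysed here.

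HOX genes encode homeodomain transcription factors that give cells their position along the head-to-tail axis of the embryo. Each cluster carries its members in the order in which they are used along the axis, and genes in the same place of different clusters form a paralog group that shares a number. Low numbers mark the hindbrain and neck, middle numbers the trunk, and high numbers the lumbar, sacral, limb and urogenital regions, while the forebrain and midbrain develop without HOX expression. Polycomb proteins keep unused HOX genes silent, and retinoic acid, FGF and WNT signals open the clusters from their low-numbered end.

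The RNA-seq libraries came from human cells that were wild type (WT) or had a homozygous CRISPR-Cas9 deletion of ZNF274, a KRAB zinc finger protein that represses clustered gene families (KO). HEK293T, a transformed embryonic kidney line, gave 3 WT libraries (S15, S16 and S17) and 3 KO libraries (S18, S19 and S20). NPCs, neural progenitor cells made from H1 embryonic stem cells through embryoid bodies, gave S3 and S5 as 2 WT libraries and S1 and S2 as 2 KO libraries. The submitters describe the replicates of a group as independent clones, grown from single cells after editing. Differences of clone, passage and library therefore cannot be told apart within a group. In bulk RNA, fewer cells of a type and less RNA per cell cannot be told apart either.

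ZNF274 itself was counted 423 to 492 times in the 3 WT HEK293T libraries, 491 and 496 times in the WT NPC libraries and 0 times in all 5 KO libraries. Total counts were 21421013 to 32285876 in HEK293T and 18621266 to 23035490 in NPC libraries. The KO library S18 stood apart from the others of its cell type. The counts of S18 differed from those of S19 and S20 by 75.2 and 66.1 chi-square units per degree of freedom, against 18.5 to 41.9 for the other pairs of libraries within a HEK293T genotype. S18 also had the fewest counts of the 6 HEK293T libraries. HOX results of the KO in HEK293T are therefore given with and without it where it moves them.

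WT HEK293T cells expressed HOX genes from all 4 clusters, with the highest levels in paralog groups 9 to 13. The last gene of a cluster was its highest only in HOXD, since HOXB13, HOXA13 and HOXC13 lay below HOXB9, HOXA11 and HOXC9. Levels are given as CPM, counts scaled to library size with TMM factors, and between genes as CPM per kb of annotated exons. HOXD13, which patterns digits and the urogenital tract, had the highest level with 91.2 ± 6.79 CPM per kb (SD, n = 3). HOXB9, a thoracic to lumbar gene, came next with 65.9 ± 6.10 CPM per kb. These 2 genes stood above all other HOX genes, since the third, HOXA11, reached 12.4 ± 2.22 CPM per kb and its WT range overlapped that of HOXA9, at 12.2 ± 1.23 CPM per kb. HOXD10, HOXA10, HOXC9 and HOXA5 followed at 9.50, 9.41, 8.85 and 8.62 CPM per kb, each with a WT range that overlapped its neighbour. In the order of 34 genes with counts, 28 of 33 neighbouring pairs overlapped in their WT ranges, so the order holds only in coarse steps. At the low end were HOXA2, with 0.222 ± 0.0426 CPM per kb, HOXD1, with 0.0962 ± 0.0386, and HOXD12, with 0.0742 ± 0.0320. HOXB1, which sets the identity of a hindbrain segment, had 0 counts in all 6 HEK293T libraries. Across the 34 genes tested, level per kb in WT cells rose with paralog number (Spearman rho = 0.64, across genes of the same libraries, which are not independent replicates).

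**Figure D1:**
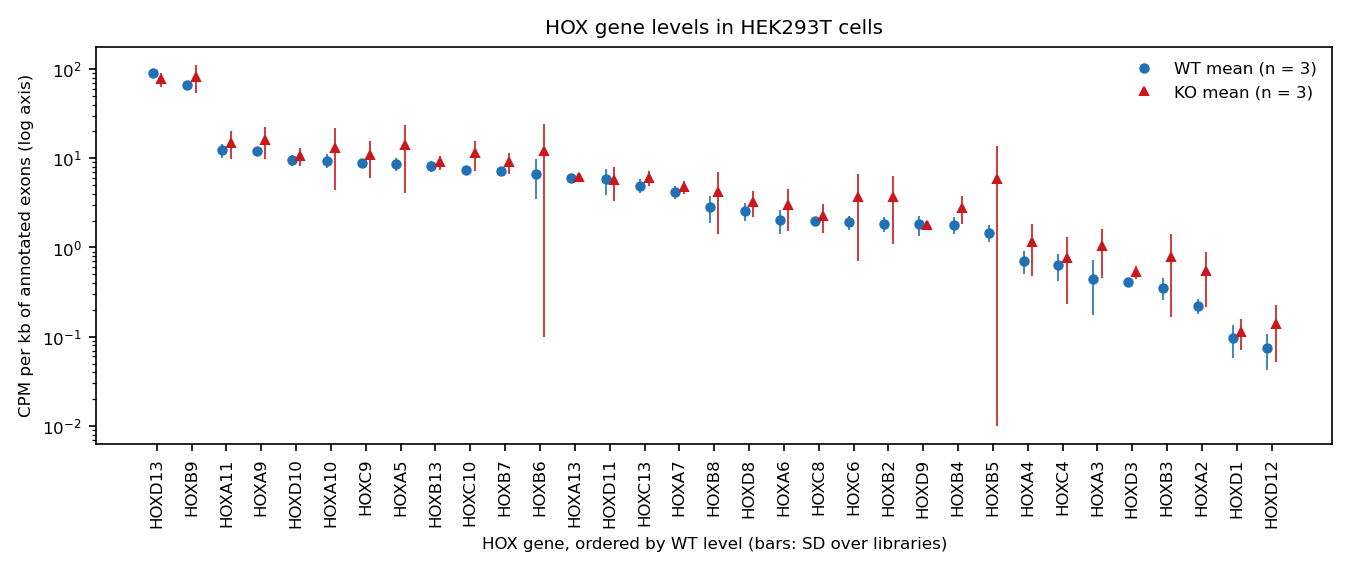
HOX gene levels in HEK293T cells as CPM per kb of annotated exons on a log axis, ordered by the WT mean for 33 genes, with circles for WT, triangles for KO and bars for the SD over 3 libraries; the lower bar of HOXB5 in KO cells is drawn only to the foot of the axis because the SD is larger than the mean. HOXD13 at 91.2 and HOXB9 at 65.9 CPM per kb lie above the rest, and KO error bars are longer than WT error bars for HOXB5, HOXB6 and HOXC6.

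The promoter windows of 4 HOX genes are shown as examples along the clusters, to set beside the HEK293T values below. HOXA2 was the gene with KO libraries above all WT libraries, HOXA4 and HOXA9 stand for the trunk and posterior parts of the same cluster, and HOXD13 was the gene with the highest WT level. They were chosen after their values were seen. RefSeq windows of 300 bases (GRCh38.p14, 250 before and 50 after the start, in the direction of the gene) matched 20 of 39 HOX genes, with 27 windows in all. HOXB2, HOXB5 and HOXC6 had no window in the table used here. HOXA2 lies at chr7:27102634-27102933, HOXA4 at chr7:27130708-27131007 and HOXA9 at chr7:27165488-27165787, all on the minus strand, and HOXD13 at chr2:176092471-176092770 on the plus strand. Capitals mark matches on either strand to TGATNNAT, a letter pattern of PBX-HOX pairs, TAATTA, a homeodomain core, CCAAT, the NF-Y box, and TATAAA, the TATA box.
HOXA2: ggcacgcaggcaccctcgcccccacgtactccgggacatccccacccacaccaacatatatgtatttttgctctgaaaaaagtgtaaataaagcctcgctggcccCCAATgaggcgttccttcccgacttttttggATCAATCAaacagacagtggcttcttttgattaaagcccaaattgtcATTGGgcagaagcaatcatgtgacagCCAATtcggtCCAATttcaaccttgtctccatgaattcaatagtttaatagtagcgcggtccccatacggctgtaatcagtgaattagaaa
HOXA4: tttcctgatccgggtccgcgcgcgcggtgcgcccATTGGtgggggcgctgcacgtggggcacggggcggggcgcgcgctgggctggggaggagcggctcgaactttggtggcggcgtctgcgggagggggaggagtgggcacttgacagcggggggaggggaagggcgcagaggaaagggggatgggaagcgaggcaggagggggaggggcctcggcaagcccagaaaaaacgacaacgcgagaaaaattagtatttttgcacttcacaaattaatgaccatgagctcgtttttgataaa
HOXA9: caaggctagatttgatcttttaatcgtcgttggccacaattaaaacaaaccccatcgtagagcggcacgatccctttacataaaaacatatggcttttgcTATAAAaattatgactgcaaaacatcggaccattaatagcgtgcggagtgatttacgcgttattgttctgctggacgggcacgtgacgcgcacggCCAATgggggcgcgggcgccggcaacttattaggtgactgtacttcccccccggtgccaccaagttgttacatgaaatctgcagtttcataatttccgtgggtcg
HOXD13: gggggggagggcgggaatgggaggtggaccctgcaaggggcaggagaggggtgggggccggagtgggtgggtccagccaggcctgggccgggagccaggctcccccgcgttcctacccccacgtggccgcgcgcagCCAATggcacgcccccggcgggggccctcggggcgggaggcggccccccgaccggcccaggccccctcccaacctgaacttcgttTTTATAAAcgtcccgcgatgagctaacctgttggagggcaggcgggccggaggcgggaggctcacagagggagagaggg

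CCAAT was present in 18 of 27 HOX windows (66.7%), against 34.6% of all 35116 windows. TATAAA was in 5 HOX windows (18.5%, all windows 11.5%), TGATNNAT in 3 (11.1%, all windows 7.40%) and TAATTA in 2 (7.41%, all windows 4.84%). HOXA2 had 4 CCAAT matches and 1 TGATNNAT match in its window. The 2 TATAAA matches of HOXD13, 1 on each strand, overlap each other. The median number of CG dinucleotides was 22 in HOX windows and 14 in all windows. The windows are not independent, since HOXA3 has 7 of them and HOXC4 and HOXC5 share 1, and a letter match describes the sequence only.

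No HOX gene was called in HEK293T KO cells. Calls needed an FC above 2 and an adjusted p below 0.05 in edgeR's quasi-likelihood test, where the p was adjusted over all genes by the Benjamini-Hochberg method. Of 34 HOX genes tested, 0 were called, against 0.489% of all 19018 genes. DESeq2 and limma voom also called 0. Without the FC threshold the number stayed at 0. At an unadjusted p below 0.05 there were 7 HOX genes, all higher in KO (4.43% of all genes were at this p and higher in KO), 7 with DESeq2 and 2 with voom. Among them were HOXA2, HOXA3, HOXB2 and HOXB3 of the anterior paralog groups, HOXB5 and HOXC10. Their adjusted p in edgeR lay between 0.618 and 0.673.

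Although no single gene passed, the fitted values were mostly on the same side. The log2 FC was above 0 in 31 of 34 HOX genes, against 51.4% of all genes tested, and its median was 0.39, against 0.0106 over all genes. The 3 genes below 0 were all posterior HOXD genes, HOXD9 (-0.03), HOXD11 (-0.04) and HOXD13 (-0.25). Without S18, 21 of 34 genes had a log2 FC above 0, the median was 0.04, and 0 genes were at an unadjusted p below 0.05. HOX genes share clusters, libraries and regulators, so these counts are a description with no test.

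**Figure D2:**
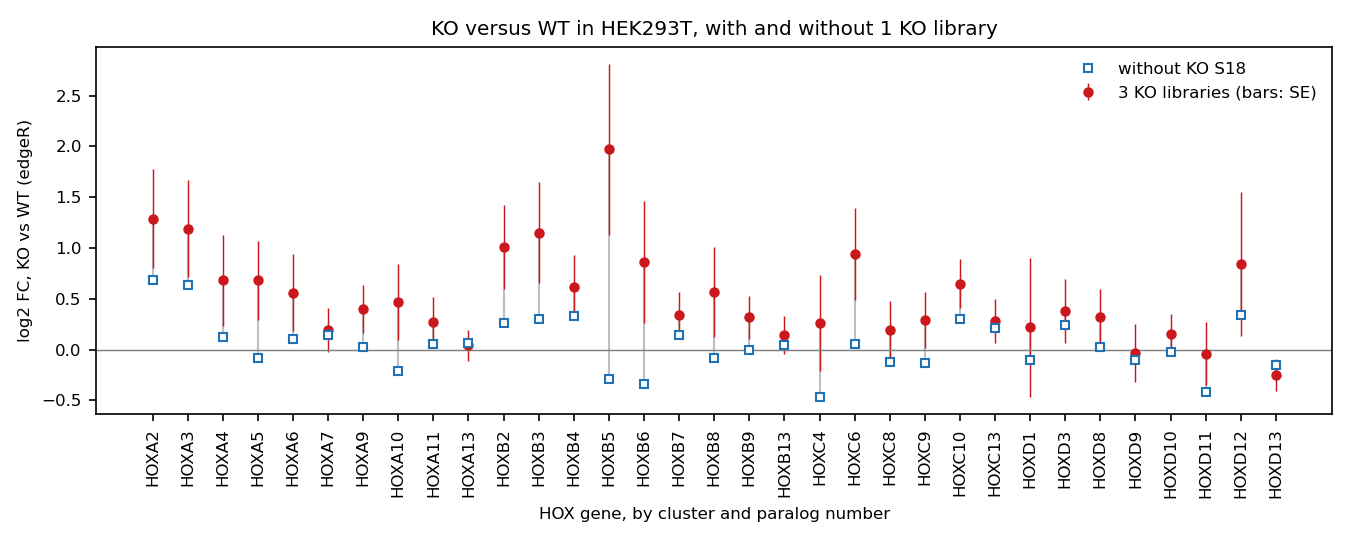
Fitted log2 FC of KO against WT HEK293T cells for 33 of the 34 HOX genes tested, by cluster and paralog number, with all 3 KO libraries (filled circles, bars for the SE) and without KO S18 (open squares). The median over the 34 falls from 0.39 to 0.04 when S18 is left out, and HOXB5 moves from 1.97 to -0.29.

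S18 was the highest of the 6 libraries for 29 of 34 HOX genes, whereas it was the highest for 28.2% of all genes. For 19 HOX genes it was more than 1.5 times every other library, which held for 7.79% of all genes. The other libraries were the highest for 0 to 2 HOX genes each. The median log2 ratio to the WT mean over the HOX genes (CPM + 0.05) was 1.0 in S18, -0.12 in S19 and 0.22 in S20. The WT libraries lay at 0.16, -0.05 and -0.08 on this scale, and all genes together at -0.02 to 0 in each library. The coefficient of variation over 3 libraries, at a mean of at least 1 CPM, had a median of 18.3% in WT and 39.2% in KO for 31 HOX genes, against 12.0% and 16.6% for 12804 genes of that level. Whether S18 differs from its sister clones through culture, clone or library was not tested.

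**Figure D3:**
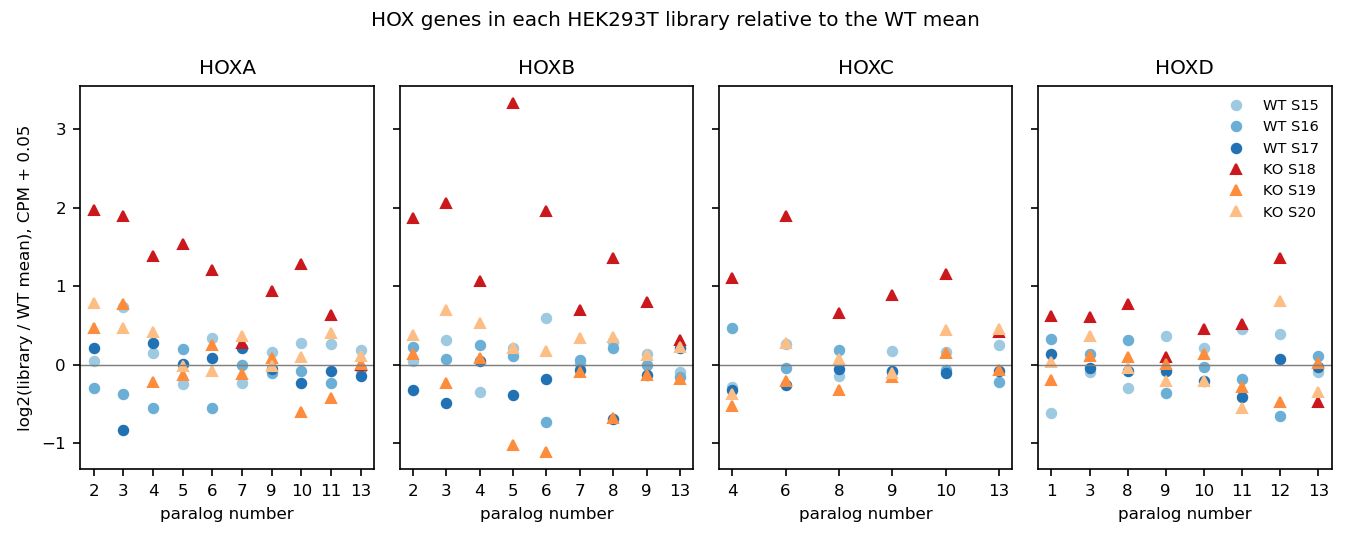
log2 ratio of each HEK293T library to the WT mean (CPM + 0.05) for 33 of the 34 HOX genes tested, in 1 panel per cluster, by paralog number, with circles for WT and triangles for KO libraries. KO S18 is the highest library in 29 of all 34 genes and reaches 3.33 at HOXB5, while S19 and S20 are the highest in 0 and 2 genes.

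The HOXB cluster (chr17:46605888-46806112 in hg19, minus strand) held the largest difference. HOXB5, a trunk gene with roles in the gut nervous system, had 95, 86 and 61 counts in WT libraries and 638, 43 and 85 counts in S18, S19 and S20, that is 3.17, 2.96 and 2.07 CPM against 27.9, 1.32 and 3.18 CPM. S18 thus held 10.2 times the WT mean, and S19 and S20 held 0.483 and 1.16 times. The log2 FC was 1.97 ± 0.845 (SE, adjusted p = 0.673, edgeR), and -0.29 without S18. HOXB6, its neighbour, had 26.2, 10.4 and 15.2 CPM in WT and 67.0, 7.95 and 19.4 CPM in KO libraries. The WT libraries of HOXB6 already spanned a wide range, and the log2 FC was 0.86 ± 0.603, or -0.34 without S18. In both genes S19 was the lowest of all 6 libraries.

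At the anterior end of the same cluster, HOXB2 and HOXB3, both hindbrain genes, were also highest in S18. HOXB2 had 4.67, 5.23 and 3.59 CPM in WT and 16.6, 4.91 and 5.87 CPM in KO libraries. HOXB3 had 3.27, 2.75 and 1.86 CPM in WT and 11.1, 2.24 and 4.26 CPM in KO libraries. The ranges overlapped for both genes, with log2 FC of 1.01 ± 0.417 and 1.15 ± 0.498 (SE), and 0.26 and 0.30 without S18. At the other end, HOXB9 had 187, 169 and 156 CPM in WT and 296, 156 and 186 CPM in KO libraries, a log2 FC of 0.32 ± 0.212 that became 0.00 without S18. HOXB13, a prostate and hindgut gene that lies apart from the rest of the cluster, had 22.4 to 28.9 CPM in WT and 22.0 to 31.0 CPM in KO libraries. S18 was the highest library for all 9 HOXB genes tested, and the summed level of the cluster was 225.5 to 269.9 CPM in WT libraries and 492.6, 212.6 and 275.4 CPM in S18, S19 and S20.

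In the HOXA cluster (chromosome 7, minus strand), HOXA2, which patterns the hindbrain and the second pharyngeal arch, was the only HOX gene whose KO libraries all lay above the WT libraries. Such a separation held for 7.16% of all genes, and no HOX gene had its KO libraries all below. HOXA2 had 16, 12 and 18 counts in WT and 50, 24 and 25 counts in KO libraries, that is 0.534, 0.413 and 0.610 CPM against 2.18, 0.737 and 0.934 CPM. The log2 FC was 1.29 ± 0.490 (SE, adjusted p = 0.626, edgeR) and 0.68 without S18 (adjusted p = 0.910, edgeR). HOXA3, needed for thymus and parathyroid, had 3.24, 1.48 and 1.05 CPM in WT and 7.25, 3.32 and 2.69 CPM in KO libraries. S18 was its highest library, the ranges overlapped, and the log2 FC was 1.19 ± 0.478 (0.64 without S18).

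S18 was also the highest library in the middle of HOXA. HOXA5, a gene of the neck and lung, had 12.5, 17.1 and 14.9 CPM in WT and 43.3, 13.5 and 14.6 CPM in KO libraries, with a log2 FC of 0.68 ± 0.385, or -0.08 without S18. HOXA4 had 1.37, 0.826 and 1.49 CPM in WT and 3.28, 1.04 and 1.64 CPM in KO libraries (log2 FC 0.68 ± 0.451, or 0.12 without S18), and the KO range overlapped the WT range. HOXA9, known from blood progenitors, had 41.3, 34.3 and 35.5 CPM in WT and 71.1, 39.2 and 36.6 CPM in KO libraries (0.40 ± 0.237, or 0.03 without S18). HOXA10, which patterns the lumbar region and the uterus, had 42, 33.0 and 29.6 CPM in WT and 84.6, 23.1 and 37.4 CPM in KO libraries, with 0.47 ± 0.372, or -0.21 without S18. HOXA13, at the posterior end, had 34.3, 29.1 and 27.3 CPM in WT and 30.0, 30.5 and 32.6 CPM in KO libraries (log2 FC 0.04 ± 0.155). HOXA7 was also not highest in S18, with 12.2 CPM in S18 and 13 CPM in S20, and 37.5% of its exonic length is free of other genes' exons, most of the rest being shared with the antisense gene HOXA-AS3. The summed level of HOXA was 161.5 to 194.6 CPM in WT libraries and 331.5, 155.7 and 197.3 CPM in S18, S19 and S20.

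In the HOXC cluster (chr12:54332615-54449814, plus strand), 6 genes were tested. HOXC6, a thoracic gene, had 7.91, 6.40 and 5.49 CPM in WT and 24.6, 5.68 and 7.96 CPM in KO libraries, with a log2 FC of 0.94 ± 0.455 (0.05 without S18). HOXC10, a gene of lumbar motor neurons, had 19.3, 16.5 and 16.1 CPM in WT and 38.5, 19.3 and 23.5 CPM in KO libraries. Its lowest KO library equalled the highest WT library at 3 digits, and the log2 FC was 0.65 ± 0.244 (adjusted p = 0.618, edgeR) and 0.30 without S18. HOXC13, the hair follicle gene at the posterior end, had at most 13.9 CPM in WT and 11.1 to 15.9 CPM in KO libraries, with S20 and not S18 the highest. HOXC4, HOXC8 and HOXC9 had S18 as the highest library and log2 FC of 0.19 to 0.29, which became -0.47 to -0.12 without S18.

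The HOXD cluster (chr2:176957449-177055635, plus strand) was the one whose summed level in S18 lay below the WT mean. HOXD13 had 206, 238 and 216 CPM in WT and 158, 224 and 173 CPM in S18, S19 and S20. For this gene S18 was the lowest library, at 0.716 times the WT mean, and the log2 FC was -0.25 ± 0.154 (SE, adjusted p = 0.782, edgeR), or -0.15 without S18. S19, at 224 CPM, lay inside the WT range. HOXD11 and HOXD10, which pattern the forearm and the lumbar region, had log2 FC of -0.04 ± 0.308 and 0.15 ± 0.201, or -0.42 and -0.02 without S18. HOXD3 and HOXD8 lay at 0.38 and 0.32, or 0.24 and 0.03 without S18. HOXD1 had 3 to 7 counts and HOXD12 had 3 to 13 counts in each library, and both allow no reading. Because HOXD13 carries most of the sum, HOXD summed to 257.4 to 285.5 CPM in WT libraries and 226.2, 272.3 and 213.8 CPM in S18, S19 and S20.

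Ordered by paralog number, the S18 values were graded from the anterior to the posterior end. The median log2 ratio of S18 to the WT mean was 1.87 over 7 genes of paralog groups 1 to 3, 1.20 over 13 genes of groups 4 to 8 and 0.57 over 14 genes of groups 9 to 13. In S19 the medians were 0.11, -0.21 and -0.10, and in S20 they were 0.47, 0.21 and 0.11. Across the 34 genes, the ratio fell with paralog number in S18 (Spearman rho = -0.61) and by less in S20 (-0.30) and S19 (-0.15), with 0.28, -0.23 and -0.07 in WT S15, S16 and S17. These genes share libraries and clusters, and the ratio in S18 was also lower at a higher WT level (rho = -0.38). Among genes of at least 10 CPM in WT cells, the S18 medians were 1.12 over 4 genes of groups 4 to 8 and 0.57 over 12 genes of groups 9 to 13. Under 10 CPM they were 1.87 over 7 genes of groups 1 to 3 and 1.20 over 9 genes of groups 4 to 8. The 7 genes include HOXD1, with 3 to 7 counts in each library. The 2 genes of groups 9 to 13, 1 of them HOXD12 with its few counts, are too few to read.

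In sums, groups 1 to 3 had 16.96 to 21.23 CPM in WT libraries and 60.14, 20.48 and 27.43 CPM in S18, S19 and S20. Groups 4 to 8 had 84.26 to 96.31 CPM in WT libraries and 250.2, 72.44 and 103.0 CPM in KO libraries. Groups 9 to 13, the bulk of the HOX RNA, had 598.6 to 672.5 CPM in WT libraries and 857.5, 602.0 and 623.3 CPM in KO libraries. S18 thus held 3.22, 2.78 and 1.35 times the WT mean in the 3 classes, while S19 lay at 1.10, 0.805 and 0.949 times and S20 at 1.47, 1.15 and 0.983 times. The mean paralog number weighted by CPM per kb was 10.06, 10.25 and 10.2 in WT libraries and 8.915, 10.27 and 9.837 in S18, S19 and S20. S19 lay just above the WT range, S20 was below the WT range, and S18 was lower by more than 1 paralog number. Within single clusters, S20 was not below the WT range. It lay inside that range in HOXA (8.56), HOXB (8.58) and HOXD (12.35) and above it in HOXC (9.856). S18 was below the WT range within each cluster, at 7.902 in HOXA, 7.971 in HOXB, 9.22 in HOXC and 12.0 in HOXD.

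**Figure D4:**
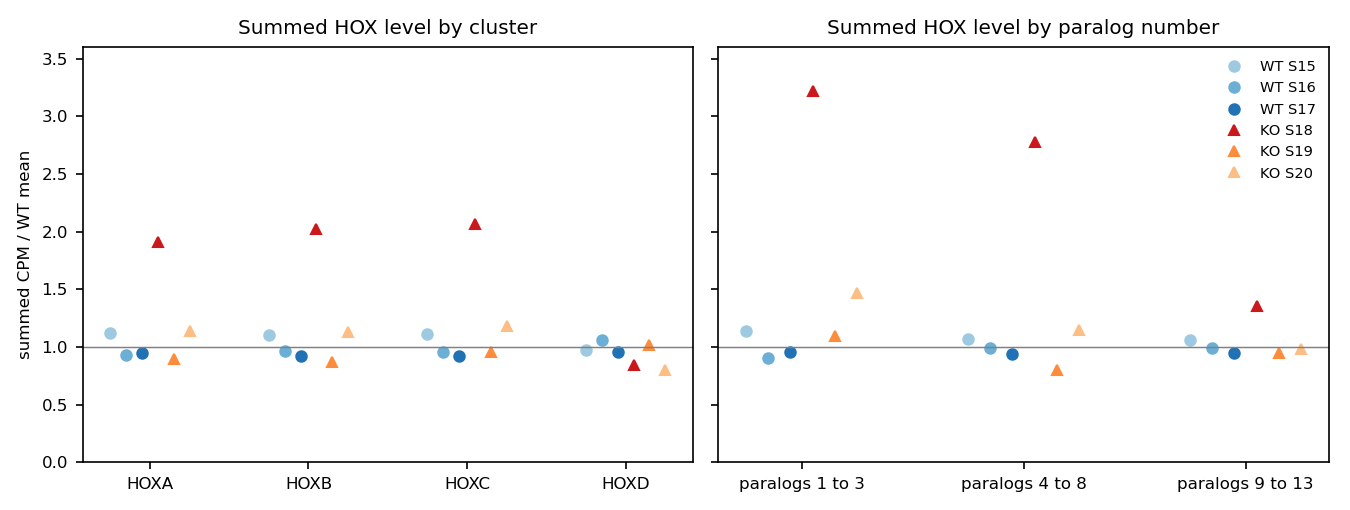
Summed CPM of HOX genes in each HEK293T library divided by the WT mean, by cluster (left) and by paralog number (right), with circles for WT and triangles for KO libraries. KO S18 lies at 3.22, 2.78 and 1.35 times the WT mean from anterior to posterior groups, and below 1 for HOXD.

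Noncoding genes inside the clusters showed the same library. Of 22 listed by name, 16 were tested, 0 were called by edgeR, DESeq2 or voom, and 2 were at an unadjusted p below 0.05 in edgeR, HOTAIRM1 and HOXA-AS2. The log2 FC was above 0 in 14 of 16 with a median of 0.51, and S18 was the highest library in 14. Of all genes tested, 51.4% were above 0, 28.2% were highest in S18 and 7.12% were at an unadjusted p below 0.05. Some noncoding genes share exons with HOX genes, such as HOXA-AS3 with HOXA7 and HOXB-AS3 with HOXB6, so they are not a separate set. HOTAIRM1, transcribed at the anterior end of HOXA, had 14, 10.2 and 13 CPM in WT and 56.6, 12.6 and 15.6 CPM in KO libraries. HOXB-AS3, antisense to HOXB5 and HOXB6, had 5.81, 4.47 and 4.44 CPM in WT and 28.5, 2.67 and 4.90 CPM in KO libraries. In both, S18 was the highest library, and in HOXB-AS3 S19 was the lowest. Without S18, 9 of 16 noncoding genes had a log2 FC above 0 with a median of 0.11, and 0 were at an unadjusted p below 0.05. The strand setting of the counting is not given in the sources used here, so reads of a HOX gene and of an antisense gene that overlaps it cannot be told apart.

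In HEK293T, 7.12% of all genes were at an unadjusted p below 0.05 in either direction, and edgeR and voom called none of the genes of the other lists. Of 13 flanking genes tested, such as SKAP2 beside HOXA, CBX1 and SNX11 beside HOXB and MTX2 beside HOXD, 0 were called by edgeR, 2 were at an unadjusted p below 0.05, 6 had a log2 FC above 0, and S18 was the highest library in 6 (for 28.2% of all genes it was). None of the 9 TALE homeobox genes, whose PBX, MEIS and PKNOX proteins bind DNA with HOX proteins, was called (2 at an unadjusted p below 0.05, median log2 FC -0.01). The same was true of 23 Polycomb and H3K27 demethylase genes (2 at an unadjusted p below 0.05, median 0.01) and 11 Trithorax genes (0, median -0.06). Among 13 upstream regulators of HOX genes, 0 were called by edgeR and 1 was at an unadjusted p below 0.05, the retinoic acid receptor gene RARB. RARB had 7.04, 8.71 and 6.47 CPM in WT and 32.5, 21.2 and 10.5 CPM in KO libraries, with no overlap and a log2 FC of 1.53 ± 0.341 (adjusted p = 0.125, edgeR) that stayed at 1.10 without S18. DESeq2 called it higher in KO, and it was named after its values were seen. CDX2, a caudal homeobox gene that activates trunk HOX genes, had 34.8 to 43.7 CPM in WT and 34.0 to 50.2 CPM in KO libraries. Markers of kidney, mesenchyme, neural progenitor, forebrain, hindbrain and pluripotent cells gave 0 calls in HEK293T by edgeR, DESeq2 or voom, with 1 gene in edgeR at an unadjusted p below 0.05, in the forebrain and midbrain list. Of the kidney lineage genes themselves, PAX8 was at 0 in WT HEK293T cells, PAX2 reached 0.374 ± 0.152 CPM and SIX2 23.4 ± 1.19 CPM (SD, n = 3).

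In NPCs, few HOX genes were listed, and 3 of the 4 listed were at or below the limit of counting. The NPC table listed 4 of the 31 HOX genes with a mean of at least 1 CPM in HEK293T (12.9%), whereas it listed 12818 of all 12985 genes of that level (98.7%). At 10 CPM or more the shares were 2 of 17 HOX genes (11.8%) and 99.6% of all genes. The NPC table held 117 genes with 0 counts in all 4 libraries (0.558%), so a gene with no counts here could still be listed, and the level of an unlisted gene cannot be read from the table. Of the 4 listed genes, HOXB5 had 0 and 0 counts in WT S3 and S5 and 1 and 2 counts in KO S1 and S2. HOXC13 had 0 and 0 counts in WT and 1 and 1 in KO, and HOXD13 had 0 and 0 in WT and 3 and 0 in KO. All of these lie at or below a floor of 3 counts per library, where no fold is given.

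HOXB2 was the only HOX gene tested in NPCs. It had 0 and 4 counts in WT S3 and S5 and 7 and 31 counts in KO S1 and S2, that is 0 and 0.205 CPM against 0.346 and 1.40 CPM. The KO libraries differed from each other by more than the WT libraries did. The log2 FC was 3.06 ± 1.23 (SE, adjusted p = 0.108, unadjusted p = 0.0413, edgeR), so 0 of 1 HOX gene was called, against 16.8% of all 20577 genes. DESeq2 and voom called 0 as well, and neither gave an unadjusted p below 0.05. The log2 FC was 1.72 without KO S2, 2.07 without WT S3 and 3.73 without KO S1. Leaving out WT S5 turned this into 1 call, but the WT group then consisted of 1 library at 0 counts, where the fitted size depends on the prior count. The highest NPC level of HOXB2, 1.40 CPM in KO S2, was below its lowest level in HEK293T, 3.59 CPM in WT S17, where the 2 tables were scaled separately.

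Between the WT cell types, with both tables scaled together, the 4 HOX genes in the fit were called lower in NPCs (15.5% of all 19255 genes were). HOXB5, HOXC13 and HOXD13 entered this fit only through their HEK293T counts, so their direction was set by the filter and their count is no result. As levels, HOXD13 was at least 1480-fold lower in NPCs, HOXC13 at least 78.4-fold and HOXB5 at least 18.4-fold, with the floor of 3 counts per library for the NPC libraries at 0. For HOXB2, with 0 and 4 counts in WT NPCs, the log2 FC was -5.43 ± 0.966 (SE, adjusted p = 0.000412, edgeR), and -4.42 without WT NPC S3. Without WT S5 the WT NPC group is 1 library at 0 counts, and no size is given. Voom called 3 of the 4, without HOXB5. Cell type, origin and count table cannot be told apart in this comparison. Whether the KO effect differed between the cell types could be asked only of HOXB2, since the other 3 genes had 0 to 3 counts in every NPC library. HOXB2 was not called for the difference (12.2% of all genes were), and its unadjusted p was not below 0.05 in edgeR, DESeq2 or voom. For HOXB2 the difference in log2 FC, NPC minus HEK293T, was 2.10 ± 1.26 (SE, adjusted p = 0.296, edgeR), and it lay between 0.75 (without KO S2) and 2.85 (without HEK293T KO S18) when 1 library other than WT NPC S5 was left out.

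Genes of head identity, where HOX genes are silent, changed in the same NPC libraries. Of 8 forebrain and midbrain genes tested, edgeR, DESeq2 and voom called 4 down-regulated in KO NPCs (8.36% of all genes in edgeR) and 0 up-regulated (8.45%), with a median log2 FC of -1.93, against -0.0219 over all genes. OTX1 and OTX2, homeobox genes of the forebrain and midbrain, had 102 and 81.6 CPM, and 76.2 and 50.7 CPM, in WT S3 and S5. In KO S1 and S2, OTX1 had 18.4 and 26.7 CPM (log2 FC -2.03 ± 0.207, adjusted p = 0.000687, edgeR) and OTX2 had 16.9 and 26.0 CPM (-1.56 ± 0.263, adjusted p = 0.00505). LHX2 had 19.3 and 29.1 CPM in WT and 0.395 and 0.135 CPM in KO libraries, and SIX3 had 23.2 and 24.9 CPM in WT and was at 0 in both KO libraries. For all 4 genes the KO libraries lay below the WT libraries, which adds nothing to their calls, since the calls chose them.

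The hindbrain list gave 0 calls in edgeR of 3 genes tested in NPCs, with 1 at an unadjusted p below 0.05. That gene was GBX2, which sets the midbrain-hindbrain boundary, with 1.75 and 14.9 CPM in WT and 38.0 and 26.4 CPM in KO libraries (log2 FC 1.96 ± 0.757, adjusted p = 0.0978, edgeR). Voom called GBX2 higher in KO, and DESeq2 did not. Among 13 upstream regulators of HOX genes tested, edgeR called 2 up-regulated and 0 down-regulated, a share near that of all genes (16.8%). DESeq2 also called the signal gene WNT3A lower in KO, with a log2 FC of -3.18 in edgeR, and voom called 3 up-regulated. RARB had 0.426 and 0.512 CPM in WT and 6.37 and 6.71 CPM in KO libraries (log2 FC 3.79 ± 0.360, adjusted p = 0.000512, edgeR). CYP26B1, which breaks down retinoic acid, had 0.284 and 0.102 CPM in WT and 1.43 and 1.58 CPM in KO libraries (2.91 ± 0.653, adjusted p = 0.0161, edgeR). The other 2 genes of that family were not called and had low counts the other way round, with 4 and 10 for CYP26A1 and 1 and 7 for CYP26C1 in WT and 0 in both KO libraries. 

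Among the partners and silencers of HOX genes, 2 of 9 TALE homeobox genes were down-regulated in KO NPCs, MEIS1 and PBX4. With so few genes this is read as values of these 2 genes and not of the list, since 16.8% of all genes were called. MEIS1 had 4.21 and 7.32 CPM in WT and 0.247 and 0.270 CPM in KO libraries (log2 FC -4.44 ± 0.484, adjusted p = 0.000889, edgeR). PBX4 had 2.04 and 1.74 CPM in WT and 0.543 and 0.315 CPM in KO libraries (-2.13 ± 0.522, adjusted p = 0.0223, edgeR). Of 23 Polycomb and H3K27 demethylase genes, edgeR, DESeq2 and voom called 3 down-regulated and 0 up-regulated, again a share near that of all genes. JARID2, which guides PRC2 to its targets, had 98.6 and 111 CPM in WT and 31.6 and 26.2 CPM in KO libraries (-1.86 ± 0.142, adjusted p = 0.000235, edgeR). CBX2, a PRC1 subunit, had 81.7 and 104 CPM in WT and 29.9 and 29.6 CPM in KO libraries, and CBX8, another, had 7.95 and 7.63 CPM in WT and 2.22 and 3.20 CPM in KO libraries. The catalytic subunit EZH2 was lower with a log2 FC of -0.62 ± 0.107 (adjusted p = 0.00572, edgeR), short of the FC threshold. RBBP4, KDM6B, PHC1 and PHF1, also short of it, were lower with log2 FC of -0.68, -0.66, -0.58 and -0.55 (adjusted p = 0.0122, 0.0272, 0.0111 and 0.0331, edgeR). CBX6, MTF2 and RING1, short of the FC threshold too, were higher with log2 FC of 0.65, 0.51 and 0.52 (adjusted p = 0.0195, 0.025 and 0.0429, edgeR). Of the 23 genes, 8 had a log2 FC above 0, and the median was -0.38. No Trithorax gene of 11 and no flanking gene of 13 was called by edgeR (4 and 5 at an unadjusted p below 0.05, as were 40.3% of all genes), while voom called 1 flanking gene, CALCOCO2, higher in KO.

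**Figure D5:**
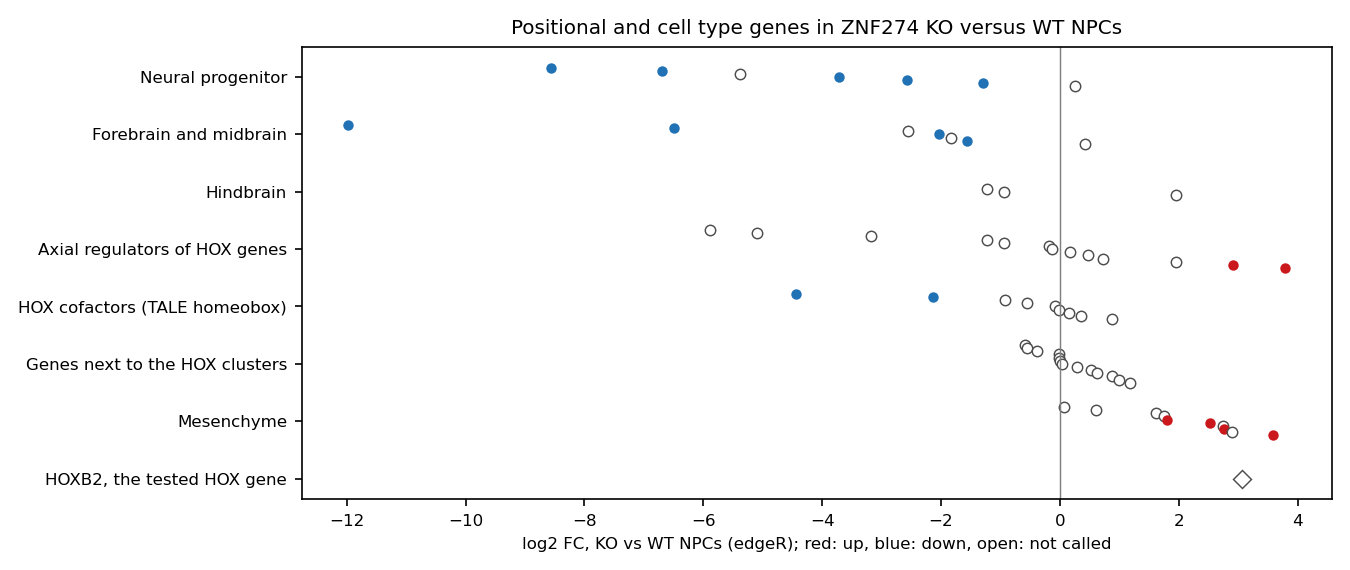
Fitted log2 FC of KO against WT NPCs for tested genes of 7 lists and for HOXB2 (diamond), with red for up-regulated, blue for down-regulated and open symbols for genes not called. The fitted value of a gene at 0 in both KO libraries, such as SIX3 at the far left, depends on the prior count and is no size of change; forebrain and midbrain genes have a median of -1.93, with 1 of 8 above 0, and mesenchyme genes a median of 2.17.

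Markers of cell types differed between the genotypes of the NPC cultures. WT NPCs had the neural progenitor markers SOX2, PAX6, NES, FABP7 and MSI1. SOX1 differed between WT S3 and S5, with 7.29 and 50.6 CPM, and HES5 had only 0.284 and 0.205 CPM. Of 7 neural progenitor markers tested, 5 were down-regulated (SOX1, SOX2, PAX6, FABP7 and MSI1, of which voom did not call SOX1), against 8.36% of all genes in edgeR, with a median log2 FC of -3.72. SOX2 had 227 and 219 CPM in WT and 12.7 and 21.1 CPM in KO libraries. The summed level of the list was 2820 to 3830 CPM in WT and 3160 to 3240 CPM in KO NPCs, most of it NES, which was not called. Of 10 mesenchyme markers, 4 were up-regulated (COL1A1, COL3A1, PDGFRB and TWIST1, of which voom did not call TWIST1, while DESeq2 added PRRX1), against 8.45% of all genes in edgeR, with a median of 2.17 and a summed level of 1240 to 2120 CPM in WT and 5100 to 5910 CPM in KO NPCs. Most of that difference was COL1A1, with 601 ± 60.7 CPM in WT and 3480 ± 33.4 CPM in KO NPCs (SD, n = 2), while COL1A2, the highest of the list in WT, had 1320 and 590 CPM in WT and 1200 and 808 CPM in KO libraries and was not called. TWIST2, a defining marker of that list, was at 0 in all 4 libraries. Of 4 kidney lineage genes 1 was up-regulated (SIX2), and of 3 pluripotency genes 1 was down-regulated (LIN28A), in lists too short to set against the 16.8% of all genes called. The part of these cells in the HOXB2, RARB and OTX values was not tested.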

How the data were processed

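RNA-seq libraries of 6 HEK293T and 4 NPC samples were used, 1 clone each, made with a stranded poly(A) kit. The authors used HISAT2 with the hg19 build and featureCounts on reads with 1 mapping position, and deposited a table of raw counts per gene for each cell type, without normalization. Versions and the strand setting of the counting are not given in the sources used here. How reads in exons shared by 2 genes were assigned is not given either. Transposable elements and other assays were not analysed here.

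Symbols, positions and exonic lengths came from GENCODE lifted to hg19, which matched 23273 of 24050 gene identifiers. Genes with a total count of at least the number of libraries in the fit were tested with edgeR 4.0.16 (R 4.3.3; TMM, quasi-likelihood, group as the only term), within each cell type and, for genes of both tables, in 1 fit of 4 groups, with Benjamini-Hochberg adjustment over all genes. A call needed an adjusted p below 0.05 and FC above 2. DESeq2 1.42.0, limma 3.58.1 (voom, the study's own test), other scalings and filters, and fits without each library were alternatives. The procedure was tested on simulated data, with no outcome reported here. P-values rest on the spread between libraries of a group, in which clone, passage and library are mixed. Counts limit precision, and floors of 3 counts cover counting error only. Sample titles pair no libraries. HOX genes called or with the highest levels, and the called members of other lists with the highest CPM (at most 4), were to be named with every library's value. HOX genes at an unadjusted p below 0.05, or where S18 was far from the rest, were added after their values were seen. The members and lists were chosen with earlier results of these data known. Counts, sums and medians cover all members, and values of some single genes are not reported here.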

Additional observations from a re-analysis of the deposited data

How the results depend on the processing

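Between WT cell types, 4 HOX genes were called under the alternatives, except for 3 with voom. The filter set the direction of HOXB5, HOXC13 and HOXD13 there, so this count is no result. For the difference between cell types, only HOXB2 could be asked. The number of HOX genes called was 0 in HEK293T and 0 for that difference under every alternative run. In NPCs it ranged from 0 to 1 when a library was left out, and edgeR's filterByExpr left no HOX gene to test. The counts at an unadjusted p, the counts above 0 and the medians in HEK293T were followed under the same alternatives, chosen after seeing the data. HOX genes at an unadjusted p below 0.05 in HEK293T numbered 7, or 2 with voom, and 0 to 18 without 1 library. They numbered 0 without KO S18 or WT S16, 2 without WT S15 or WT S17, and 18 without KO S19. The median log2 FC ranged from 0.04 (without S18) to 0.56 (without S19). In WT HEK293T the weighted mean paralog number of 10.17 became 10.27 without length normalization and 10.02 with unshared exonic length, and S18 remained the lowest library under both. Scaling by library size alone turned HOXD9 to 0.06 and HOXD11 to 0.06, and it shifted the all-gene median from 0.0106 to 0.0977 in HEK293T, from -0.0219 to -0.13 in NPCs and from -0.025 to -0.238 for the difference, where calls changed from 1157 higher and 1197 lower to 843 and 1702. With 1 library left out, the HEK293T log2 FC changed sign for HOXA5 (-0.08 to 0.98), HOXA10 (-0.21 to 0.82), HOXA13 (-0.03 to 0.14), HOXB5 (-0.29 to 2.52), HOXB6 (-0.34 to 1.34), HOXB8 (-0.08 to 0.96), HOXC4 (-0.47 to 0.58), HOXC8 (-0.12 to 0.41), HOXC9 (-0.13 to 0.49), HOXD1 (-0.10 to 0.47), HOXD9 (-0.18 to 0.19), HOXD10 (-0.02 to 0.31) and HOXD11 (-0.42 to 0.25). No paired analysis was possible because the libraries carry no number shared between groups. The cause of these shifts was not tested, and HOXD1, with 3 to 7 counts in each library, allows no reading of its sign. In NPCs 35 of 39 HOX genes are not in the table used here, and of the 4 that are, only HOXB2, with 0 to 31 counts per library, could be tested.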
